A study of Mus musculus with 18 samples.

Results

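The measurements concern 8 transcription factor genes of the dendritic cell lineages, *Zbtb46*, *Batf3*, *Batf*, *Id2*, *Tcf4*, *Runx3*, *Bhlhe40* and *Spib*, which were taken by gene symbol from the 20298 genes of an RNA-seq table. RNA came from mouse monocytes and from monocyte-derived cells (MDCs), in 6 groups of 3 libraries. The question was which of these genes differ between WT cells and cells in which the transcription factor STAT5 can pair but cannot assemble tetramers. Levels are given as RPKM, the reads of a gene divided by its length in kilobases and by the size of the library.

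All mice were of the C57BL/6 strain. DKI mice carried mutated *Stat5a* and *Stat5b* alleles, knocked in at both genes, with the change in the N-domain through which STAT5 dimers join into tetramers. The knockin is carried by every cell of the mouse, so that the monocytes had also developed with it. On day 0, WT and DKI cells had received no GM-CSF, and on days 3 and 6 the cultures had grown with 20 ng/mL of this cytokine. There were no cultures without GM-CSF on days 3 and 6, so that an effect of GM-CSF and of time in culture cannot be told apart. The starting cells were labelled as monocytes with Ly6C and CCR2 on their surface, and were enriched by negative selection. The age and sex of the mice, and whether animals were pooled, are not given in the sources used here. The 3 libraries of a group are described as independent experiments, but the labels do not name separate animals, so p-values measure the spread between these libraries.

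Dendritic cells present antigen to T cells, and the choice between their subsets and between dendritic cell and macrophage fates is set by small networks of transcription factors. *Zbtb46* marks conventional dendritic cells and their precursors, *Batf3* is needed for the cross-presenting subset, and the ID protein encoded by *Id2* blocks the E protein encoded by *Tcf4*, which drives plasmacytoid dendritic cells. GM-CSF signals through STAT5, and monocytes that receive it acquire features of both dendritic cells and macrophages.

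Total reads per library lay between 29.5 and 43.2 M (median 36.4 M), as recovered from the RPKM values. The tissue label is liver, whereas the study names bone marrow. *Alb* and *Ttr*, which hepatocytes make in large amounts, were at 0 RPKM in all 18 libraries. *Ly6c2* had a median of 1624 RPKM in WT and 1411 RPKM in DKI libraries of day 0, and *Ccr2* of 333 and 339 RPKM. Markers of single dendritic cell subsets were at mixed levels in WT MDCs of day 3. The means of *Xcr1*, *Clec9a* and *Siglech* were 0.109, 0.857 and 0.204 RPKM. Those of *Cd209a*, *Itgae* and *Pacsin1* were 245 ± 247, 40.7 ± 6.12 and 8.07 ± 0.955 RPKM (SD, n = 3). In DKI MDCs of day 3 the latter 3 were at 5.92, 0.331 and 0.412 RPKM. There *Xcr1*, *Clec9a* and *Siglech* were at 0.0971, 1.01 and 0.0106 RPKM. DKI replicate 1 stood apart on days 3 and 6, with 1231 and 954 RPKM of the interferon-induced gene *Bst2* against 76.5 to 241 RPKM in the other 5 libraries of day 3 and 131 to 187 RPKM in those of day 6. The library names of replicate 1 on days 3 and 6, in both genotypes, carry an earlier year than all other names. For the 8 genes, values without these 4 libraries are given beside the genotype differences and the rises of day 3 whose call or sign they changed or whose value they moved by over 1.5 times. For the other genes, the genotype calls, or their counts, without them are given with each list.

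Windows of 250 bases upstream of annotated starts were read from RefSeq for 6 of the 8 genes (build GRCm38.p6, 7 windows). They were searched for TTCNNNGAA, the GAS motif that STAT dimers bind, for the AP-1 motif TGANTCA, for the E-box CACGTG that BHLHE40 can bind, and for the RUNX motif, TGTGGT on the printed strand or its reverse complement ACCACA. The first 3 motifs read the same on both strands as searched. Of 32851 windows of the same length in the table, 7.02% held the GAS motif, 6.749% the AP-1 motif, 6.021% the E-box and 14.05% the RUNX motif. The windows of *Batf3*, *Batf*, *Runx3* and *Id2* are shown because *Batf3*, *Id2* and *Runx3* rose in WT culture and *Batf*, a paralogue of *Batf3*, was not called. Each is printed 5′ to 3′ on the strand of its gene, with every match in capitals.
Batf3 (chr1:191098164-191098413, plus strand): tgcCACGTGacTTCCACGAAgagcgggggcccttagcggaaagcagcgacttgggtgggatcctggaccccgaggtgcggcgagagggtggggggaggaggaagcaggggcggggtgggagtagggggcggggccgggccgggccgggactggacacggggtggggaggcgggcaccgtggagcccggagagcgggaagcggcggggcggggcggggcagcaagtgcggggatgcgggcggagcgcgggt
Batf (chr12:85686470-85686719, plus strand): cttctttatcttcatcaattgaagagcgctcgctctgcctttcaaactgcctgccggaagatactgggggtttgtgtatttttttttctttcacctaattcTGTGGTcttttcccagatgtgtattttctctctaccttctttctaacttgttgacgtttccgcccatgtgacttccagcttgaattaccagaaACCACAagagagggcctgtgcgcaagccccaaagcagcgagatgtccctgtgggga
Runx3 (chr4:135120395-135120644, plus strand): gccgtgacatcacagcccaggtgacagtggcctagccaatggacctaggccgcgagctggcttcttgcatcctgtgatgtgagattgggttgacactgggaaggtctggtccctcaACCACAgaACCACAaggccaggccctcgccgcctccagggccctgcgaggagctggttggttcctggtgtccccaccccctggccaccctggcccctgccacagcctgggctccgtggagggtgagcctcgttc
Id2 (chr12:25096093-25096342, minus strand): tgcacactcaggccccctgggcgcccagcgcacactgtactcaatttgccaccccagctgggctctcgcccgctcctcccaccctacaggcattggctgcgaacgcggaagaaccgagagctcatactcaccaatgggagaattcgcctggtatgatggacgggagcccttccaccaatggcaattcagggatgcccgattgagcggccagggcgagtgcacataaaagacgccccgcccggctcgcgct

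The *Batf3* window held an E-box 247 bases and a GAS match (TTCCACGAA) 239 bases before the start, and these do not overlap. The *Batf* window held RUNX matches 149 and 56 bases before its start, and the outer start of *Runx3* had a pair of ACCACA copies 134 and 126 bases upstream. The windows of *Id2*, *Spib* and the inner *Runx3* start held none of the 4 motifs. The window of *Zbtb46* held the AP-1 match TGACTCA 61 bases before the annotated start, but this start lies within the gene, 68624 bases from its outer end, so the window is not shown. GC content was 76.0% for *Batf3* and 46.4% for *Batf*, with a median of 52.4% over all windows. A match describes letters only, and no binding was measured here.

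The 8 genes were at very different levels once the cells had been cultured. In WT MDCs of day 3 the mean was 457 ± 103 RPKM for *Id2*, 213 ± 13.7 for *Bhlhe40*, 35.9 ± 5.99 for *Runx3*, 25.1 ± 11.4 for *Batf3*, 17.6 ± 2.86 for *Batf*, 13.5 ± 3.25 for *Zbtb46*, 7.59 ± 0.639 for *Tcf4* and 1.06 ± 0.437 for *Spib* (SD, n = 3). RPKM is per length of gene, so that these levels can be compared between genes.

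**Figure D1:**
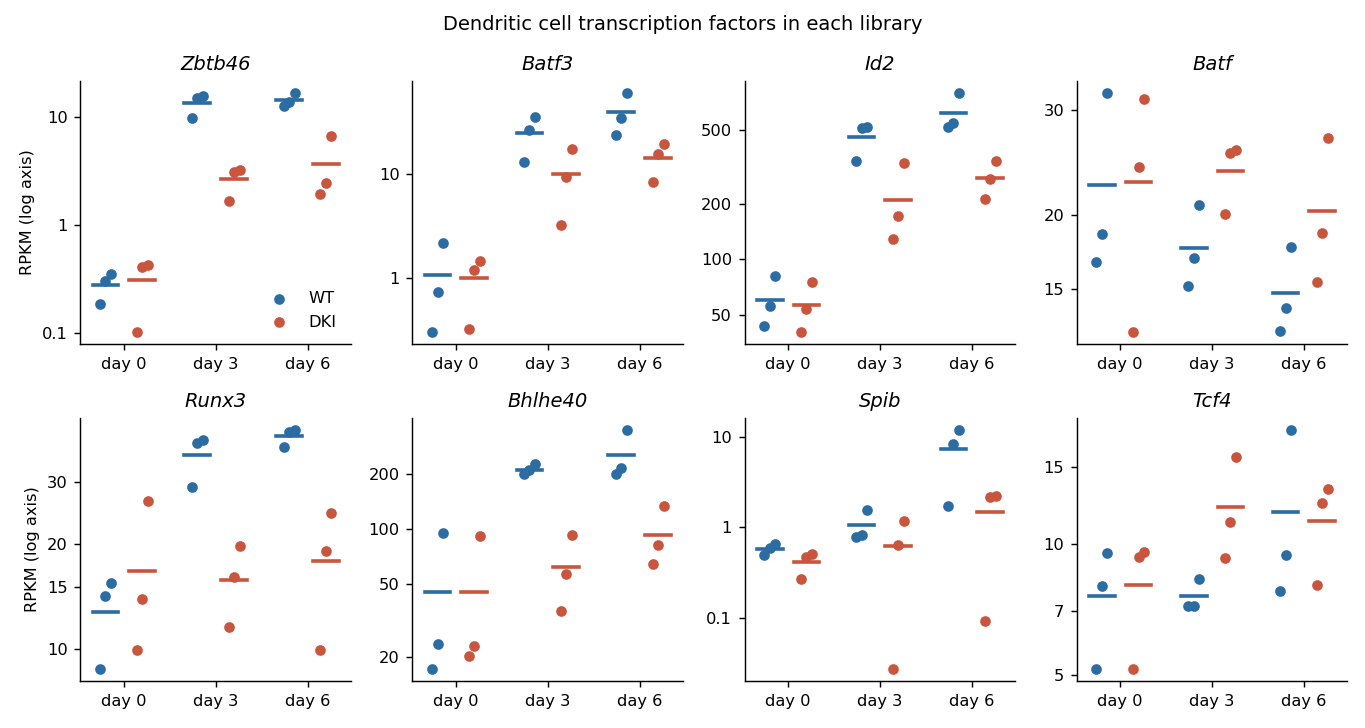
RPKM on a log axis (y) of each gene in each library by day (x), for WT (blue) and DKI (red), with 1 point per library and a bar at the group mean. Zbtb46, Id2, Runx3 and Bhlhe40 of WT lie above DKI with no overlap on days 3 and 6, while Batf overlaps on each day.

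Comparisons used log2(RPKM + 1), which understates the change of genes with low RPKM. Genes with a mean above 2 RPKM in at least 1 compared group were fitted with limma, and called genes had a fold above 1.5 together with an adjusted p (Benjamini-Hochberg) under 0.05. Before GM-CSF, no difference between genotypes was called for the 5 genes that passed this filter (*Batf*, *Id2*, *Runx3*, *Bhlhe40*, *Tcf4*). Over all 9179 genes fitted, limma called 0 (0%), 44 had an unadjusted p under 0.05 (0.479%), limma-voom on the recovered reads also called 0, and a fit on all 18 libraries called 6, all higher in DKI and none of them a member. *Batf3*, *Zbtb46* and *Spib* were below the filter on day 0.

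*Zbtb46* (chromosome 2, 181371009 to 181493262), a zinc finger repressor of conventional dendritic cells, had the largest fitted difference of the members between genotypes on days 3 and 6 on the log2(RPKM + 1) scale. The ratio of the WT to the DKI mean on day 6 was 3.92 for *Zbtb46* and 4.92 for *Spib*. It was close to silent in monocytes, at 0.349, 0.305 and 0.184 RPKM in WT and 0.424, 0.410 and 0.101 RPKM in DKI libraries, or 10 to 59 reads. On day 3 its values were 15.0, 15.7 and 9.73 RPKM in WT MDCs and 1.65, 3.21 and 3.06 RPKM in DKI MDCs. MDCs of day 6 had 13.7, 12.7 and 16.6 RPKM in WT against 2.45, 6.59 and 1.93 RPKM in DKI. Every WT library lay above every DKI library on both days. The ratio of WT to DKI within same-numbered pairs was 3.18 to 9.07 on day 3 and 1.92 to 8.61 on day 6.

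In the limma fits *Zbtb46* was lower in DKI MDCs by a log2 fold change of -1.99 on day 3 (SE 0.26, adjusted p = 0.0126) and of -1.84 on day 6 (SE 0.36, adjusted p = 0.0367). With the replicate number as a block, the day 3 call was kept (adjusted p = 0.0338) and that of day 6 was lost (0.0551). Without WT replicate 1 or 2 the adjusted p on day 3 was 0.0569 and 0.0515. On day 6 the call was also lost without any of WT replicates 1, 2 and 3 or DKI replicates 1 and 3, with adjusted p from 0.0683 to 0.132, and without the 4 libraries of the earlier year (0.217), where day 3 kept its call (0.0486). In order of mean level, WT of day 6 (14.3 RPKM) and day 3 (13.5) came before DKI of day 6 (3.66) and day 3 (2.64), and last came DKI (0.312) and WT (0.279) monocytes. Only neighbours of the same genotype or of day 0 overlapped in this order.

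*Zbtb46* rose in culture in both genotypes, 48.2-fold in the WT and 8.47-fold in the DKI mean from day 0 to day 3. On the log2 scale the rise was 3.47 in WT (SE 0.22, adjusted p = 8.5e-05) and 1.45 in DKI (SE 0.28, adjusted p = 0.0102). On day 0 it was below 2 RPKM, so that it entered these fits only through day 3, where it was high. In limma fits without the filter the adjusted p was 0.000803 in WT, 0.0125 in DKI and 0.0171 for the interaction given next. The rises differed between genotypes by -2.02 (SE 0.33, adjusted p = 0.0104 for the interaction in limma). With pairs of one WT and one DKI library formed within each day, the adjusted p was 0.0150. It was 0.0756 with a pseudocount of 0.1 and 0.259 by limma-voom on reads, with an SE of 0.88. Of the 10212 genes in this fit, 2.91% were called for a difference in change, 1.7% lower and 1.2% higher in DKI, and among the 7 members fitted *Zbtb46* was the only gene called without pairs.

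*Batf3* (chromosome 1, 191098414 to 191108943) encodes a partner of JUN proteins that directs cross-presenting dendritic cells. In monocytes it was at 0.301, 0.730 and 2.16 RPKM in WT and 0.325, 1.204 and 1.47 RPKM in DKI libraries. On day 3 the values were 13.0, 35.5 and 26.8 RPKM in WT and 3.21, 9.42 and 17.5 RPKM in DKI MDCs. On day 6 they were 23.8, 35.0 and 60.4 RPKM in WT and 8.37, 15.6 and 19.3 RPKM in DKI MDCs. The groups overlapped on day 3, where the highest DKI library exceeded the lowest WT library, and were apart on day 6. Within each same-numbered pair of both days WT was higher, by 1.53 to 4.04 times on day 3 and 2.24 to 3.13 times on day 6.

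The *Batf3* difference of -1.38 on day 3 (SE 0.60, 95% interval -2.81 to 0.06, adjusted p = 0.205) did not pass the test, and it ran from -0.80 (without DKI replicate 1) to -1.87 (without DKI replicate 3) when 1 library was left out. On day 6 it was -1.37 (SE 0.41, adjusted p = 0.0900), and with the replicate block it passed (adjusted p = 0.0248). From day 0 to day 3 *Batf3* rose by 3.65 on the log2 scale in WT (SE 0.44, adjusted p = 0.000989) and by 2.27 in DKI (SE 0.55, adjusted p = 0.0209). *Batf3* too entered these fits only through day 3, where its mean was above 2 RPKM. In limma fits without the filter the adjusted p was 0.00460 in WT and 0.0466 in DKI. The difference between these rises, -1.38, had an adjusted p of 0.438 and was -0.81 without DKI day 3 replicate 1. The rise in DKI was not called by limma-voom on reads (adjusted p = 0.0760) or when DKI monocyte replicate 1 or 2 or DKI day 3 replicate 2 was left out (0.0565 to 0.0665). By mean level the order was WT of day 6 (39.7 RPKM), WT of day 3 (25.1), DKI of day 6 (14.4), DKI of day 3 (10.04), WT monocytes (1.06) and DKI monocytes (1.001). Neighbours in this order overlapped, except DKI of day 3 and WT monocytes.

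*Batf* (chromosome 12, 85686720 to 85709087), the paralogue that is best known from lymphocytes, was not called in any comparison. It was already expressed in monocytes, at 32.0, 16.6 and 18.5 RPKM in WT and 31.3, 12.7 and 24.1 RPKM in DKI libraries. On day 3 its values were 15.1, 16.9 and 20.7 RPKM in WT and 25.3, 20.1 and 25.6 RPKM in DKI MDCs. Those of day 6 were 12.8, 17.7 and 13.9 RPKM in WT and 26.9, 18.7 and 15.4 RPKM in DKI MDCs. DKI was the higher of each same-numbered pair on both days, but the groups overlapped. The differences of 0.41 on day 3 (SE 0.17, adjusted p = 0.195) and 0.41 on day 6 (SE 0.23, adjusted p = 0.298) did not pass, with 95% intervals of -0.01 to 0.83 and -0.15 to 0.97. The change from day 0 to day 3 was -0.29 in WT (95% interval -0.90 to 0.33) and 0.14 in DKI (-0.64 to 0.91). Without the 4 libraries of the earlier year these 4 values were 0.26, 0.11, -0.19 and 0.087. The 6 group means spanned 14.8 to 23.7 RPKM, and neighbours in their order overlapped throughout.

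*Id2* (chromosome 12, 25093799 to 25096092) had the highest mean of the 8 genes in each of the 6 groups. Monocytes had 43.8, 56.3 and 81.6 RPKM in WT and 40.4, 54.1 and 75.3 RPKM in DKI. MDCs of day 3 had 513, 521 and 339 RPKM in WT and 129, 332 and 172 RPKM in DKI. MDCs of day 6 had 517, 549 and 793 RPKM in WT and 213, 340 and 270 RPKM in DKI. The genotypes were apart on days 3 and 6, although on day 3 the gap between the highest DKI and the lowest WT library was only from 332 to 339 RPKM.

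The *Id2* difference was -1.20 on day 3 (SE 0.39, 95% interval -2.14 to -0.27, adjusted p = 0.119) and -1.17 on day 6 (SE 0.27, 95% interval -1.81 to -0.53, adjusted p = 0.0502), and neither passed. With all 18 libraries in the fit day 3 passed (0.0299). On day 6 the value lay at the threshold, and over the alternatives tried the adjusted p ran from 0.0307 to 0.217. Between day 0 and day 3 *Id2* rose by 2.91 in WT (SE 0.28, adjusted p = 0.000402) and by 1.81 in DKI (SE 0.40, adjusted p = 0.0156), with a difference of -1.11 (adjusted p = 0.336) that was -0.72 without the 4 libraries of the earlier year. The call in DKI was lost without monocyte replicate 1 or 2 (adjusted p = 0.0512 and 0.0553). By mean level the order was WT of day 6 (620 RPKM), WT of day 3 (457), DKI of day 6 (275), DKI of day 3 (211), WT monocytes (60.6) and DKI monocytes (56.6). DKI of day 3 lay above WT monocytes, and the other neighbours overlapped.

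*Tcf4* encodes the E protein of plasmacytoid dendritic cells that ID2 restrains. It was at 5.16, 8.02 and 9.56 RPKM in WT and at 5.16, 9.61 and 9.35 RPKM in DKI monocytes. On day 3 its values were 7.22, 7.21 and 8.32 RPKM in WT and 15.9, 9.30 and 11.3 RPKM in DKI MDCs. Those of day 6 were 9.44, 7.80 and 18.3 RPKM in WT and 13.4, 8.05 and 12.4 RPKM in DKI MDCs. The day 3 groups were apart, with DKI higher in each pair by 1.29 to 2.20 times, while those of days 0 and 6 overlapped. The day 3 difference of 0.59 (SE 0.20, 95% interval 0.09 to 1.08) had an adjusted p of 0.137. On day 6 the difference was -0.01 (SE 0.34, adjusted p = 0.990). Without the 4 libraries of the earlier year these differences were 0.36 and -0.24. The change from day 0 to day 3 was 0.03 in WT and 0.55 in DKI (adjusted p = 0.912 and 0.175), and without them 0.064 and 0.36. The group means spanned 7.58 to 12.1 RPKM, and neighbours in their order overlapped.

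*Runx3* (chromosome 4, 135120645 to 135177990) encodes a RUNX factor of lymphocytes and some dendritic cell subsets. Monocytes had 8.76, 15.4 and 14.2 RPKM in WT and 9.93, 26.5 and 13.9 RPKM in DKI. On day 3 WT MDCs had 39.0, 39.7 and 29.0 RPKM and DKI MDCs 11.5, 19.7 and 16.0 RPKM. On day 6 WT MDCs had 41.9, 37.9 and 42.4 RPKM and DKI MDCs 9.94, 24.5 and 19.1 RPKM. The WT libraries of days 3 and 6 exceeded all other libraries, and DKI values of days 3 and 6 overlapped those of DKI monocytes.

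*Runx3* was lower in DKI by -1.16 on day 3 (SE 0.23, adjusted p = 0.0363), a call that was lost with the replicate block (adjusted p = 0.0593), without any 1 of the WT libraries or DKI replicate 3 (0.0690 to 0.129), without the filter (0.0691) and without the 4 libraries of the earlier year (0.0981). On day 6 the difference was -1.23 (SE 0.31, adjusted p = 0.0630), and it passed with all 18 libraries in the fit (0.0230) and without DKI replicate 2 (0.0350). By day 3 *Runx3* had risen by 1.44 in WT (SE 0.24, adjusted p = 0.00308), and the change in DKI was -0.01 (SE 0.37, 95% interval -0.88 to 0.87) and turned to 0.19 without the 4 libraries of the earlier year. The difference between the changes was -1.45 (SE 0.47, adjusted p = 0.148), and with pairs within each day it passed (adjusted p = 0.0337). In order of mean level, WT of day 6 (40.7 RPKM) and day 3 (35.9) overlapped and stood above DKI of day 6 (17.8), day 0 (16.8) and day 3 (15.7) and WT monocytes (12.8), which overlapped as neighbours.

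*Bhlhe40* (chromosome 6, 108660629 to 108666925) encodes a basic helix-loop-helix repressor that is induced by cytokines. On day 0 it was at 96.2, 17.2 and 23.6 RPKM in WT and at 92.3, 20.2 and 22.9 RPKM in DKI monocytes. Replicate 1 stood far above the other monocyte libraries in both genotypes. On day 3 its values were 200.2, 211 and 227.3 RPKM in WT and 35.9, 57.3 and 92.9 RPKM in DKI MDCs. Those of day 6 were 217, 202 and 352 RPKM in WT and 64.6, 81.7 and 135 RPKM in DKI MDCs. On both days each WT library exceeded each DKI library, and the DKI values of day 3 overlapped those of the monocytes.

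The day 3 difference of *Bhlhe40* was -1.86 (SE 0.34, adjusted p = 0.0282, with the block 0.0390). It lost its call without any 1 of the WT libraries or DKI replicate 2 (0.0691 to 0.0975), without the 4 libraries of the earlier year (0.0566), without the filter (0.0594) and with all 18 libraries in the fit (0.0520). The day 6 difference was -1.47 (SE 0.34, adjusted p = 0.0517) and passed with the block (0.0289). *Bhlhe40* rose from day 0 to day 3 by 2.60 in WT (SE 0.58, adjusted p = 0.00983), while the change in DKI was 0.70 (SE 0.62, 95% interval -0.79 to 2.19, adjusted p = 0.406) and ran from 0.31 without DKI monocyte replicate 2 to 1.38 without DKI monocyte replicate 1. The interaction of -1.90 was not called without pairs (SE 0.95, adjusted p = 0.371) and was called with them (SE 0.30, adjusted p = 0.0156). Without pairs it was -1.22 when DKI monocyte replicate 1 was left out. In order of mean level, WT of day 6 (257 RPKM) and day 3 (213) overlapped and stood above DKI of day 6 (93.6) and day 3 (62.0) and the WT (45.7) and DKI (45.1) monocytes, whose neighbours overlapped.

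**Figure D2:**
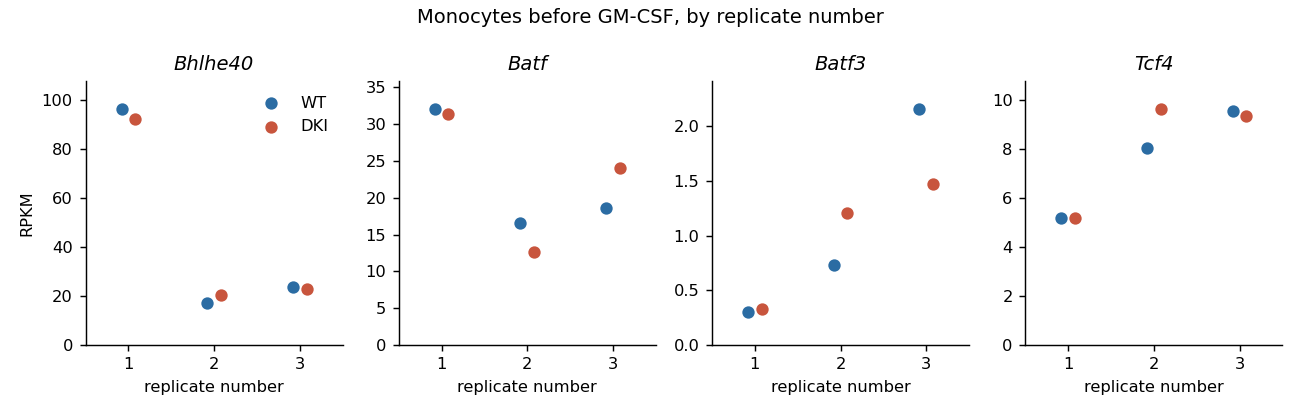
RPKM (y) of 4 genes in monocytes of day 0 by replicate number (x), with 1 point per library, WT in blue and DKI in red. Bhlhe40 of replicate 1 is at 96.2 and 92.3 RPKM against 17.2 to 23.6 RPKM in replicates 2 and 3.

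The plot of monocytes by replicate number shows that the spread on day 0 lay between numbers rather than genotypes. *Batf* also was highest in replicate 1, and *Batf3* and *Tcf4* were lowest there. Across all fitted genes the deviations from the group mean of same-numbered WT and DKI libraries correlated on each day, with a lowest value of 0.686 on day 0, 0.163 on day 3 and 0.338 on day 6.

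*Spib* (chromosome 7, 44525995 to 44532087) encodes an ETS factor of plasmacytoid dendritic cells and B cells, and had the lowest mean of the 8 genes on days 3 and 6. It was at 0.658, 0.594 and 0.496 RPKM in WT and at 0.471, 0.507 and 0.267 RPKM in DKI monocytes. On day 3 its values were 1.57, 0.830 and 0.792 RPKM in WT and 1.18, 0.0274 and 0.645 RPKM in DKI MDCs, and the lowest of these values was 3 reads. Those of day 6 were 12.02, 1.75 and 8.28 RPKM in WT and 2.21, 0.0920 and 2.18 RPKM in DKI MDCs. Each WT library was the higher of its pair, by 3.80 to 19.0 times on day 6, but the groups overlapped because WT replicate 2 was below DKI replicates 1 and 3.

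*Spib* passed the filter only through WT of day 6, the group in which it was high, so its value is given as a description. The day 6 difference was -1.63 (SE 0.69, 95% interval -3.28 to 0.02, adjusted p = 0.180, with the block 0.0304). Replicate 2 was the lowest library of its group in WT of day 6 and in DKI of days 3 and 6. From day 3 to day 6 the change in WT was 1.77 (SE 0.56, unadjusted p = 0.0181, adjusted p = 0.632), and every WT library of day 6 was above every WT library of day 3. WT of day 6 (7.35 RPKM) and DKI of day 6 (1.49) led the order, before WT of day 3 (1.06), DKI of day 3 (0.617) and the monocytes (0.582 and 0.415), and neighbours overlapped.

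Counted over the group, 3 of the 7 members fitted on day 3 were called, all lower in DKI, where 7.42% of 9740 genes were called, 4.21% lower and 3.21% higher. The 3 were *Zbtb46*, *Bhlhe40* and *Runx3*. Of the 7, 5 had groups that did not overlap, against 36.3% of all genes. On day 6, 1 of 8 was called (*Zbtb46*), where 7.54% of 9842 genes were called, 4.82% lower and 2.72% higher (of the calls 63.9% were lower, but 46.9% with median centring and 31.6% without the 4 libraries of the earlier year), and 5 of 8 did not overlap, against 37.2%. With the replicate block the day 6 calls were 3 (*Batf3*, *Bhlhe40* and *Spib*, the last of which was fitted only through its high WT group) and the day 3 calls 2 (*Zbtb46* and *Bhlhe40*). The median difference was -1.20 over the 7 members on day 3 and -1.30 over the 8 on day 6, and over all fitted genes it was -0.11 and -0.17. From day 0 to day 3, 5 of 7 members rose in WT (*Batf3*, *Zbtb46*, *Id2*, *Bhlhe40* and *Runx3*), where 20.3% of genes rose, 22.8% fell and 43.1% were called in all. Of the 5, *Batf3* and *Zbtb46* were fitted only because they were high on day 3, so the count cannot be read against that share. In DKI 3 of 7 rose (*Batf3*, *Id2* and *Zbtb46*), where 13.1% rose, 21.1% fell and 34.2% were called in all, and the same limit holds for *Batf3* and *Zbtb46*. These 2 comparisons of days and those of genotypes share libraries.

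**Figure D3:**
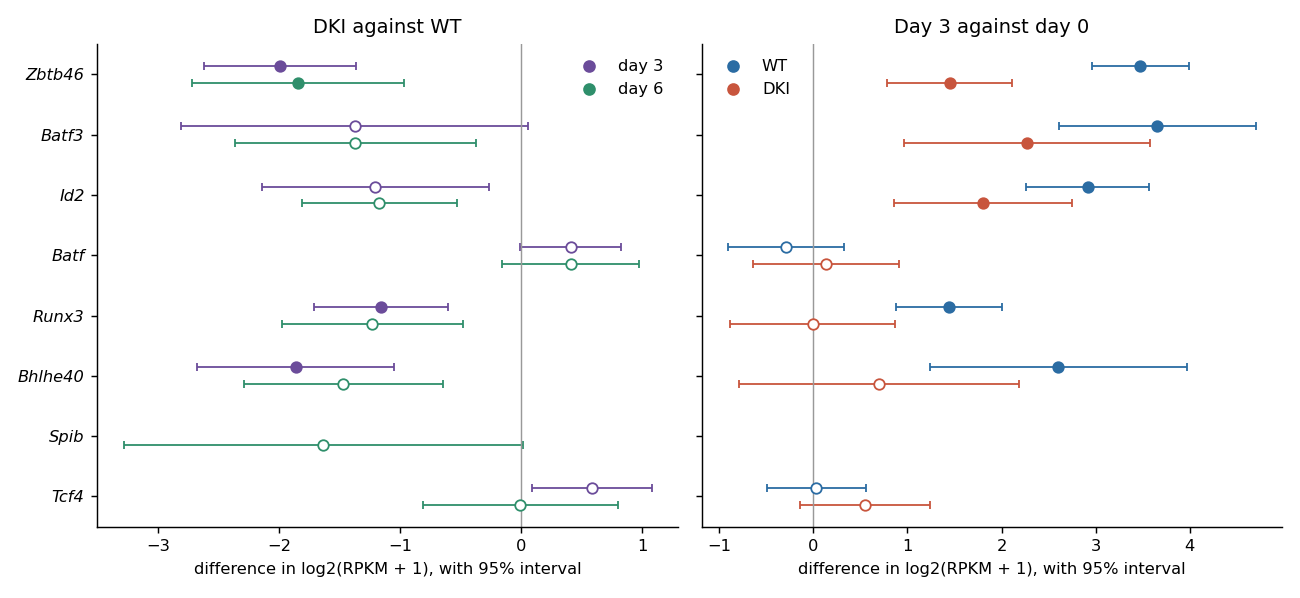
Differences in log2(RPKM + 1) (x) of each gene (y) between DKI and WT on days 3 and 6 (left) and between day 3 and day 0 within each genotype (right), with 95% intervals from limma. Filled points mark called genes, such as Zbtb46 at -1.99 and -1.84, and Spib has no point where it was below the filter.

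Between day 3 and day 6 no member was called in either genotype, and limma called 0 genes in all. In WT 722 of 9613 genes had an unadjusted p under 0.05 (7.51%), in DKI 93 of 9540 (0.975%), and limma-voom also called 0 in both. A fit on all 18 libraries called 16 genes in WT, all higher on day 6 and none of them a member, and 0 in DKI. The largest member value apart from *Spib* was 0.65 for *Batf3*, both in WT (SE 0.45) and in DKI (SE 0.57). With 1 library left out it ran from 0.25 (without WT day 3 replicate 1) to 0.96 in WT, with 0.30 without WT day 6 replicate 3, and from 0.081 (without DKI day 3 replicate 1) to 1.15 (without DKI day 3 replicate 3) in DKI. No difference in this step between genotypes was called either (0 of 9985 genes, 89 with an unadjusted p under 0.05, or 0.891%, and 0 by limma-voom).

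None of the 8 genes is in the marker lists, whose sums were apart between genotypes for some lists and days and overlapped for others. The sums were not tested. The summed level of 12 conventional dendritic cell markers was 1467 to 1883 RPKM in WT and 295 to 525 RPKM in DKI MDCs on day 3, and 1487 to 2124 against 432 to 619 RPKM on day 6. Of these markers 9 passed the filter on day 3 and 5 were lower in DKI, where 4.21% of all genes were lower, and 5 of 11 were lower on day 6, where 4.82% were. *Itgae*, at 0.331 and 0.820 RPKM in DKI, counts among them on both days and passed the filter only through WT, where it was high. Without the 4 libraries of the earlier year 3 were lower on day 3 and 0 on day 6. The fit with no filter called 3 and 2 of them. With 1 library left out the count was 3 to 5 on day 3 (3 without WT replicate 1 or 3 or DKI replicate 2) and 1 to 7 on day 6 (1 without WT replicate 1 or 3 or DKI replicate 1, and 2 without DKI replicate 3). The summed level of 9 macrophage markers was 283 to 1045 RPKM in WT and 2989 to 7740 RPKM in DKI MDCs on day 3, with 4 of 9 higher (3.21% of all genes), and 425 to 2641 against 2006 to 9096 RPKM on day 6, where the ranges overlapped and 3 of 9 were higher (2.72% of all genes). One of these 3, *Stab1*, passed the filter of day 6 only through DKI, and the counts were 3 and 1 without the earlier year and 2 and 1 without the filter. With 1 library left out they were 2 to 4 on day 3 (2 without any 1 of the WT libraries) and 1 to 2 on day 6 (1 without WT replicate 1 or 3 or DKI replicate 3). The part of cell composition in the members' differences was not tested. In bulk RNA, fewer cells of a type and less RNA per cell cannot be told apart.

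B cell markers summed to at most 7.11 RPKM on days 3 and 6, and T and NK cell markers to at most 3.47 RPKM in WT MDCs, but to 54.3 and 61.1 RPKM in the highest DKI libraries of days 3 and 6. Most of this was *Cd4*, with 18.2 ± 30.3 and 20.0 ± 34.2 RPKM in DKI, and the CD3 chain gene *Cd3g* had 2.95 ± 5.06 RPKM in DKI and 1.01 ± 1.33 RPKM in WT MDCs of day 6. These were the 2 of the 10 T and NK cell markers with a mean above 2 RPKM in any group of days 3 and 6. Plasmacytoid markers, to which *Bst2* belongs, summed to 91.5 to 154 RPKM in WT and 129 to 1305 RPKM in DKI MDCs on day 3, and to 151 to 239 and 156 to 988 RPKM on day 6. Of the 10 plasmacytoid markers 3 were fitted on day 3 and 5 on day 6. The 1 called between genotypes, *Pacsin1*, was lower in DKI on both days, where 4.21% and 4.82% of all genes were. It was at 8.07 ± 0.955 against 0.412 ± 0.303 RPKM on day 3 and 9.24 ± 5.16 against 1.04 ± 1.04 RPKM on day 6, and it too passed the filter only through WT. Its day 3 call was kept under each alternative tried, while that of day 6 was lost under 9 of 16, among them no filter (adjusted p = 0.0823), without the earlier year (0.147) and without WT replicate 1 or 3 or DKI replicate 2 or 3 (0.0612 to 0.124). Monocyte markers summed to 722 to 734 RPKM in WT and 887 to 2081 RPKM in DKI on day 3, and to 748 to 1561 and 1190 to 10963 RPKM on day 6, where they overlapped. Of these 8 markers 7 were fitted on each day, and 0 were called between genotypes on either day. Neutrophil markers ranged from 4.20 to 517 RPKM in WT and from 38.1 to 505 RPKM in DKI on day 3, and from 2.68 to 166.2 and 8.83 to 535 RPKM on day 6. In the monocyte libraries of day 0 they summed to 912 to 1251 RPKM in WT and 867 to 1246 RPKM in DKI. Of the 7 neutrophil markers, all fitted, 1 was called higher in DKI on day 3, where 3.21% of all genes were. This was *Retnlg* (2.49, SE 0.40, adjusted p = 0.0213 in limma), at 11.2 ± 2.28 against 1.34 ± 1.06 RPKM, so that it was fitted only through DKI. This call was lost without the filter (0.0546), without the earlier year (0.0651) and without WT replicate 1 or DKI replicate 2 or 3 (0.0557 to 0.0658). Those of basophils, mast cells and eosinophils ranged from 1.89 to 48.5 and from 8.61 to 41.9 RPKM on day 3, and from 16.0 to 122 and 2.66 to 52.7 RPKM on day 6.

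The partners and relatives of the members were examined by family. Of 10 AP-1, BATF and IRF partners, 8 were fitted on day 3, with 2 lower and 0 higher in DKI, where 4.21% of all genes were lower and 3.21% higher. *Irf4*, whose product binds DNA with BATF proteins, had 115.1 ± 30.02 RPKM in WT and 17.5 ± 11.5 RPKM in DKI (log2 fold change -2.92, SE 0.63, adjusted p = 0.0446). The other was *Jund* (-1.31, SE 0.23, adjusted p = 0.0265). On day 6 *Irf4* was lower (-2.66, adjusted p = 0.0235 in limma) and 2 partners were higher, *Fos* (3.03, adjusted p = 0.0288 in limma) and *Jun* (1.31, adjusted p = 0.0143 in limma), where 4.82% of all genes were lower and 2.72% higher. Without the 4 libraries of the earlier year *Irf4* kept its call on day 3 (adjusted p = 0.0179), *Jund* lost it (0.0566), and none of *Irf4*, *Fos* and *Jun* was called on day 6 (0.112 to 0.138). On day 3 neither *Irf4* nor *Jund* was called without any 1 of the WT libraries or DKI replicate 2 or 3, and without DKI replicate 3 the family had 0 lower and 2 higher. Without the filter *Irf4* lost its call on both days (0.0901 and 0.0526) and *Fos* on day 6 (0.0626), which left 1 lower on day 3 and 0 lower and 1 higher on day 6. None of the 3 partners of day 6 was called without WT replicate 1 or 3 or DKI replicate 3, and *Fos* was not called without WT replicate 2 or DKI replicate 1 either. The median of the family was -0.07 on day 3 and -0.14 on day 6.

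Outside that family no relative was called between genotypes. Of 5 E and ID proteins 4 were fitted on day 3 and 3 on day 6 (medians 0.32 and 0.12). *Runx1*, *Runx2* and their partner *Cbfb* had medians of -0.37 and -0.24. *Bhlhe41*, the closest relative of *Bhlhe40*, had values of 1.43 (SE 0.88, adjusted p = 0.354) on day 3 and 1.85 (SE 0.81, adjusted p = 0.191) on day 6, and its mean in DKI MDCs of day 3 was 16.7 ± 12.04 RPKM against 7.40 ± 8.22 RPKM in WT. *Spi1*, which encodes the ETS factor PU.1, had 353 ± 53.4 RPKM in WT and 311 ± 31.1 RPKM in DKI on day 3 (-0.18, SE 0.20, adjusted p = 0.616), while *Spic* was below the filter on both days.

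Among 20 other regulators of dendritic cell lineages, 18 were fitted on each day. On day 3, 7 were lower and 1 higher in DKI, and on day 6, 5 were lower and 1 higher, with medians of -0.48 and -0.89. The shares over all genes were 4.21% lower and 3.21% higher for day 3, against 4.82% and 2.72% for day 6. The nuclear receptor gene *Nr4a3*, which is linked to migration of dendritic cells, had 93.2 ± 34.4 RPKM in WT and 3.14 ± 2.35 RPKM in DKI on day 3 (-4.61, SE 0.47, adjusted p = 0.00690). *Mycl*, a MYC family gene of dendritic cells, was at 14.6 ± 5.99 and 0.356 ± 0.0741 RPKM (-3.45, SE 0.30, adjusted p = 0.00500). *Irf4*, which stands in both lists, and *Ikzf4* (-2.51, SE 0.48, adjusted p = 0.0324) followed, and the remaining 3 were *Zfp366*, *Cbfa2t3* and *Bcl6*. *Mycl* and *Ikzf4* were below 2 RPKM in DKI and on day 0, so that they were fitted only through the WT MDCs in which they were high, and the counts above include them. Without the 4 libraries of the earlier year *Ikzf4*, *Cbfa2t3* and *Zfp366* lost their calls on day 3 (adjusted p = 0.119, 0.0738 and 0.0507), which left 4 lower. Without the filter *Irf4* (0.0901), *Ikzf4* (0.0708) and *Cbfa2t3* (0.0691) lost theirs, which also left 4. With 1 library left out 4 to 7 were lower, with 4 when WT replicate 1 or DKI replicate 2 was left out. *Zeb2*, a repressor that opposes *Id2* in dendritic cell progenitors, was the gene that was higher, at 81.1 ± 14.2 RPKM in DKI and 26.0 ± 3.71 RPKM in WT (1.60, SE 0.19, adjusted p = 0.00996).

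On day 6 the genes called lower were *Mycl* (-4.17, SE 0.32), *Nr4a3* (-3.49, SE 0.55), *Ikzf4* (-2.91, SE 0.25), *Irf4* (-2.66, SE 0.41) and *Cbfa2t3* (-1.96, SE 0.33), and *Zeb2* was again higher (1.53, SE 0.26). Without the 4 libraries of the earlier year 0 regulators were called on day 6, where the adjusted p of these 6 genes ran from 0.0576 to 0.182. Without the filter 2 were lower, *Mycl* and *Ikzf4*, and 0 higher. Without WT replicate 1 or 3 or DKI replicate 3, 2 were lower and 0 higher, and without DKI replicate 1, 3 were lower. Over 16 alternatives *Cbfa2t3* was called in 9 on day 3 and in 9 on day 6. Calls of single genes with the replicate block are given here for the members only, not for genes of the lists. From day 0 to day 3, 7 of 20 regulators rose and 6 fell in WT, and 1 of 18 rose and 7 fell in DKI. The shares over all genes were 20.3% and 22.8% in WT and 13.1% and 21.1% in DKI. Of the genes that rose, *Mycl*, *Ikzf4* and *Zfp366* in WT, and *Zfp366* as the single rise in DKI, were fitted only because they were high on day 3, so these counts cannot be read against the shares. *Nr4a3* rose by 2.31 in WT (SE 0.25, adjusted p = 0.000699) and in DKI fell by 2.29 (SE 0.42, adjusted p = 0.00888). The difference between these changes was -4.61 (SE 0.53, adjusted p = 0.00149), and among the regulators it was also called for *Mycl*, *Zfp366*, *Ikzf4* and *Bcl6*, the first 3 of which were below 2 RPKM on day 0. The *Ikzf4* call was lost without the filter (adjusted p = 0.0553), without the earlier year (0.0828) and in 9 of 12 fits with 1 library left out (any of day 0, or replicate 1 of either genotype or DKI replicate 3 of day 3). By limma-voom *Ikzf4* and *Zfp366* were not called (0.630 and 0.400). *Bcl6* fell in both genotypes, by 1.41 in WT and by 3.08 in DKI.

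**Figure D4:**
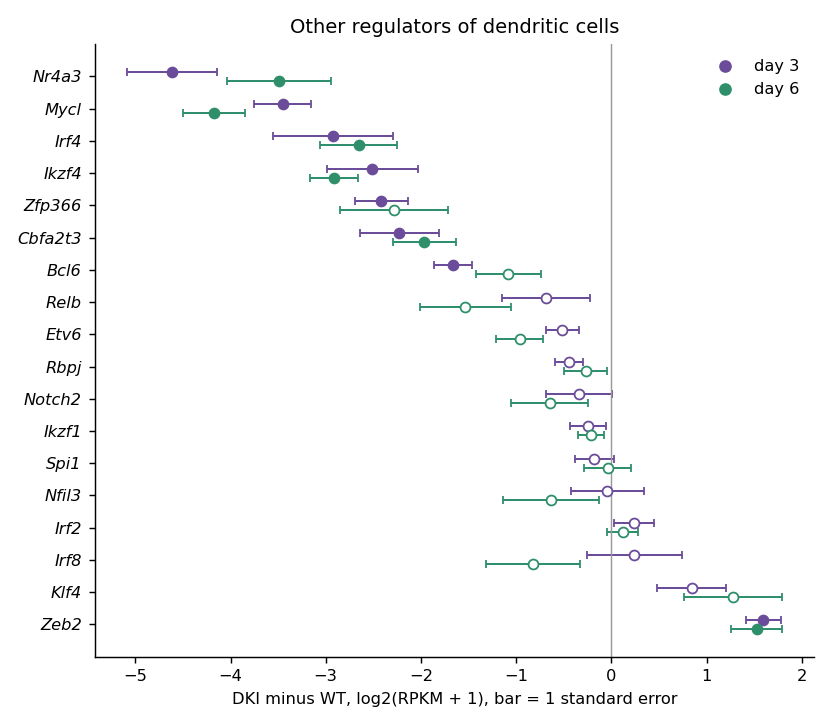
DKI minus WT in log2(RPKM + 1) (x, bars are 1 standard error) of the 18 fitted regulators (y) on days 3 and 6, with filled points for called genes. Nr4a3 at -4.61 on day 3 and Mycl at -4.17 on day 6 lie farthest to the left, and Zeb2 at 1.60 and 1.53 farthest to the right.

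The genes whose levels were most like each member were searched among 10416 genes, by Pearson correlation of log2(RPKM + 1) over the 18 libraries, which share 6 groups. This is a description, since groups that differ by day make many genes correlate. *Zbtb46* was most like *Zfp366* (r = 0.989), *Trp53i11* (0.986) and *Mpzl3* (0.982). *Batf3* was most like *Nipa1* (0.985), *Cttn* (0.980) and *Ptpn3* (0.977). *Id2* was most like *Rftn1* (0.990), *Map4* (0.976) and *Tlcd3a* (0.976).

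*Runx3* was most like *Cbx2* (0.950), *Trim36* (0.940) and *Setd7* (0.933), and *Bhlhe40* was most like *Slc1a4* (0.953), *Dnajc1* (0.934) and *Stx6* (0.931). The values were lower for *Spib*, with *Wnt11* at 0.913, *Gbp2b* at 0.911 and *Ubxn1* at 0.896. For *Tcf4* they were 0.894 with *Erlec1* and 0.853 with *Ttyh3*, and for *Batf* 0.816 with *Commd9*, 0.809 with *Clcn6* and 0.802 with *Stard5*. Among the members themselves, *Id2* and *Batf3* were the pair most alike (0.958), followed by *Id2* and *Zbtb46* (0.943) and *Batf3* and *Zbtb46* (0.906). *Batf* ran against *Runx3* (-0.813), and *Tcf4* showed little likeness to *Zbtb46* (0.145) or *Bhlhe40* (-0.01).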

How the data were processed

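RNA-seq of 18 libraries (6 groups of 3) was analysed. The authors aligned single-end reads with Subread (mm10), counted RefSeq genes with featureCounts and deposited the result as RPKM in 1 column per library, and 0 columns were unmapped. Tool versions, strand settings and the treatment of multi-mapping reads are not given in the sources used here. Entrez identifiers were matched to RefSeq (20082 of 20298 genes).

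The value of 1 read was found in each library from single-exon receptor genes of known length, and gene lengths were solved so that reads were whole. Of 15485 genes seen in at least 4 libraries, 15479 gave whole reads in every library, within 0.01 read or slightly more for very large values, so that reads and depth are those behind the deposited values. The recovered reads sum to 99.9% or more of the total that scaled each library, which therefore counts reads assigned to genes. Reads cover counting error only.

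Each comparison was fitted in R 4.3.3 with limma 3.58.1, using lmFit and an intensity trend in eBayes, on log2(RPKM + 1) of the groups compared. Genes entered where some compared group averaged over 2 RPKM. Calls needed a Benjamini-Hochberg adjusted p under 0.05 over all genes fitted and a fold above 1.5. The authors applied edgeR to counts, whereas RPKM needed a log-scale test. Differences between genotypes in a change over time were interactions over 12 libraries. The steps were tested on simulated data. Figures used Python 3.11.15 with matplotlib 3.10.9.

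Same-numbered WT and DKI libraries were treated as pairs in the blocked fits, since every such pair correlated in its deviations (lowest 0.163, on day 3). The same held from day 3 to day 6 (lowest 0.125), but not from day 0 to day 3 (lowest -0.208). Alternatives were the pseudocount, the filter, 2 scalings, the block, all 18 libraries, no trend, the later year alone, each library left out and, chosen after seeing the data, limma-voom on recovered reads and pairs within each day. The members, the lists and the 8 marker lists were chosen with earlier results of these data known. Named genes were the members, up to 4 called genes per list and direction, any list gene needed to state a count, and the 3 genes most like each member, of which 1 is not reported here. *Alb*, *Ttr*, *Ly6c2*, *Ccr2*, *Bst2*, *Xcr1*, *Clec9a*, *Siglech*, *Cd209a*, *Itgae*, *Pacsin1*, *Stab1*, *Retnlg*, *Cd4*, *Cd3g*, *Runx1*, *Runx2*, *Cbfb*, *Bhlhe41*, *Spi1* and *Spic* were named after their values were seen, and the alternatives were applied to the lists after seeing the data.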

Additional observations from a re-analysis of the deposited data

Results flagged for a closer look

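The change from day 0 to day 3 differed between genotypes for 13 genes, *Zbtb46*, 5 other regulators and 7 cell type markers, by the interaction term in limma. Over all 10212 genes fitted, 2.91% were called, 1.7% lower and 1.2% higher in DKI. Called were 1 of 7 members, 5 of 20 regulators, 3 of 10 conventional dendritic, 1 of 3 plasmacytoid and 3 of 9 macrophage markers fitted. Many of these genes were fitted only because they were high on day 3, so the counts cannot be read against the shares. For *Zbtb46* the difference was -2.02 on the log2 scale (adjusted p = 0.0104), with a rise in both genotypes. This call was lost with a pseudocount of 0.1 (adjusted p = 0.0756 in limma) and by limma-voom (0.259). For *Nr4a3* it was -4.61 (adjusted p = 0.00149), with a rise in WT and a fall in DKI. For *Mycl* it was -3.47 (adjusted p = 0.00142), for *Ikzf4* -2.51 (adjusted p = 0.0350) and for *Zfp366* -2.42 (adjusted p = 0.00423), genes that rose in WT. *Zfp366* rose in DKI too (1.96, adjusted p = 0.00516), and *Mycl* and *Ikzf4* were below the filter there. *Zbtb46*, *Mycl*, *Ikzf4* and *Zfp366* were below 2 RPKM on day 0 and entered the fit through groups of day 3 in which they were high. For *Bcl6* it was -1.66 (adjusted p = 0.0118), with a fall in both genotypes. The *Ikzf4* interaction was not called without the filter (adjusted p = 0.0553), without the 4 libraries of the earlier year (0.0828) or in 9 of 12 fits with 1 library left out, and that of *Zfp366* was not called by limma-voom (0.400). Markers of conventional dendritic cells with a lower change in DKI were *Itgae* (-5.02, adjusted p = 1.5e-05), *Ccr7* (-4.40, 0.0438) and *Cd83* (-3.03, 0.0281), and *Pacsin1*, a plasmacytoid marker, had -2.69 (0.000800). The macrophage markers *Stab1* (5.37, adjusted p = 0.00597), *Mrc1* (4.51, 0.0274) and *Mertk* (2.79, 0.0188) went the other way. Of these markers *Itgae*, *Ccr7*, *Pacsin1*, *Stab1* and *Mertk* were also below 2 RPKM on day 0, and entered the fit through day 3, where they were high. *Itgae* and *Pacsin1* were below 2 RPKM in DKI of day 3 too, so that they entered only through WT. With 1 library left out *Ccr7* was called in 3, *Cd83* in 7, *Mrc1* in 5 and *Mertk* in 10 of 12 fits, and *Itgae*, *Pacsin1* and *Stab1* in 12. Over 23 alternatives in all, *Ccr7* was called in 8, *Mrc1* in 14, *Cd83* in 16, *Mertk* in 20, *Pacsin1* in 22 and *Itgae* in 23. Without the filter 1 conventional dendritic cell marker and 2 macrophage markers were called. These interactions were fitted on 12 libraries by limma. With 3 libraries a group, no formal test for an outlying library was run.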

How the results depend on the processing

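The 5 rises in WT from day 0 to day 3 were called under each alternative tried. On day 3 the 3 genotype calls became 1 without the filter and 1 without the 4 libraries of the earlier year, and 0 to 3 when 1 library was left out (0 without WT replicate 1 or 2, and 1 without WT replicate 3). On day 6 the single call became 2 with a pseudocount of 0.5 or 0.1 or without the intensity trend, 0 without the filter or without the earlier year, 4 with all 18 libraries in the fit, 3 with the replicate block, and 0 to 3 with 1 library left out (3 without DKI replicate 2, and 0 without any other). The 3 rises in DKI became 1 without monocyte replicate 1 or 2 of DKI (range 1 to 3) and 2 by limma-voom. The interaction count of 1 from day 0 to day 3 became 0 with a pseudocount of 0.1, 0 by limma-voom and 3 with the replicate block within each day. From day 0 to day 3 same-numbered libraries did not deviate together, and the block left the counts at 5 and 3. The cause of these changes was not tested.

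Over all genes, the calls on day 3 went from 723 to 358 without the filter, 369 without the earlier year, 1359 with all 18 libraries and 197 to 715 with 1 library left out. On day 6 they went from 742 to 187, 38, 1573 and 90 to 984, and to 466 by limma-voom. The interaction calls went from 297 to 93 by limma-voom 1040 with the block within each day and 125 to 336 with 1 library left out (125 without DKI monocyte replicate 2), and the share of them that were lower went from 58.6% to 40.9% by limma-voom. The share of day 6 calls that were lower was 63.9%, and 46.9% with median centring and 47.5% with quantile normalization, and 31.6% of 38 calls without the earlier year. For day 3 against day 0 in DKI it was 61.8%, and 48.2% with median centring, and in WT 53% and 46.9%.

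Signs turned only for values that were not called. *Tcf4* on day 6 became 0.14 with median centring and 0.13 with quantile normalization. *Runx3* in DKI from day 0 to day 3 became 0.16, 0.19 and, without the earlier year, 0.19. For the interaction from day 3 to day 6, *Batf* became 0.000219 with a pseudocount of 0.1, 0.067 with median centring and 0.064 with quantile normalization, and without the earlier year *Batf3* became -0.16, *Id2* -0.31, *Zbtb46* -0.025 and *Runx3* 0.038. With 1 library left out, the genotype difference on day 0 ran from -0.28 to 0.34 for *Batf*, -0.32 to 0.14 for *Id2*, -0.077 to 0.59 for *Runx3*, -0.65 to 0.77 for *Bhlhe40* and -0.15 to 0.32 for *Tcf4*, and on day 6 from -0.24 to 0.33 for *Tcf4*. For day 3 against day 0 it was -0.19 to 0.20 for *Tcf4* in WT, and -0.21 to 0.41 for *Batf* and -0.30 to 0.36 for *Runx3* in DKI. For day 6 against day 3 it was -0.10 to 0.22 for *Zbtb46* and -0.022 to 0.38 for *Bhlhe40* in WT, and -0.16 to 0.52 for *Zbtb46*, -0.15 to 0.47 for *Runx3* and -0.25 to 0.11 for *Tcf4* in DKI. The interaction of that step was -0.21 to 0.17 for *Batf*, -0.57 to 0.50 for *Batf3*, -0.26 to 0.42 for *Id2*, -0.27 to 0.42 for *Zbtb46* and -0.33 to 0.28 for *Runx3*. With 3 libraries a group, and 9 to 59 reads for *Batf3* and *Zbtb46* in monocytes, folds against day 0 of these genes are imprecise.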
